A study of Xenopus laevis with 46 samples.

Results

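The Hox genes of Xenopus laevis were taken as the 63 rows of the count tables named by cluster (A to D), paralog number and homeolog copy, of 49281 genes in all. Of these, 61 copies are reported here and 2 are not. The 61 comprise 16 HoxA, 16 HoxB, 15 HoxC and 14 HoxD copies, of which 32 carry the suffix L and 29 the suffix S, the long and short subgenomes of this allotetraploid frog. Of their 34 combinations of cluster and paralog number, 27 were present as both copies. Paralog groups 1 to 3 are called anterior here (16 copies), groups 4 to 8 central (20 copies) and groups 9 to 13 posterior (25 copies). The RNA came from wild-type Xenopus laevis animal pole explants, pieces of blastula ectoderm that are pluripotent when cut and form epidermis when cultured alone. In the first experiment, explants from embryos injected with Wnt8 and Chordin mRNA (Wnt/Chrd, written wnt/chd in the labels), which the labels class as reprogrammed to neural crest, were set against uninjected explants, which they class as epidermal, with 3 libraries in each of 10 groups. Both kinds were collected untreated at stage 9 (blastula), or after culture from stage 9 in the BET bromodomain inhibitor IBET or in its vehicle DMSO, at stages 13 and 17 (neurula). In the second experiment, uninjected embryos were exposed from the 2-cell stage to IBET or to the histone deacetylase inhibitor trichostatin A (TSA), each beside its own DMSO control, and explants were taken at stages 9 and 13, with 2 libraries in each of 8 groups. Each library holds RNA of whole explants, so that fewer cells of a type and less RNA per cell cannot be told apart. The labels do not say whether libraries of a group came from separate clutches, so that p-values measure the spread between these libraries only.

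Hox genes encode homeodomain transcription factors that lie in clusters and give cells their position along the head-to-tail axis: genes at the 3′ end of a cluster (low paralog numbers) act early and in the hindbrain, those at the 5′ end (high numbers) later and towards the tail. In vertebrate embryos Wnt, retinoic acid and FGF signals raise Hox transcription in posterior tissue, and caudal (cdx) proteins pass part of that signal on. Cranial neural crest that migrates from the hindbrain carries a Hox code of paralog groups 1 to 4, whereas the most anterior crest carries none, and Polycomb proteins keep the clusters silent where they are not used.

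The 46 libraries held 12902520 to 32022992 reads in genes (median 21577619). On these totals alone 3 reads amounted to 0.233 CPM (reads of a gene, scaled to a common library total) in the smallest library and 0.0937 CPM in the largest. Levels are given as CPM after TMM scaling over all libraries (factors 0.723 to 1.39), where 3 reads amount to a different CPM. The levels are not divided by gene length and are compared between groups, not between genes. Libraries are named a, b and c (a and b in the second experiment) after the letters of the deposited columns, and values are listed in that order. The labelled cell types were checked against markers: the summed level of 14 neural crest gene copies (both copies of snai2, foxd3, sox8, sox9, sox10, twist1 and pax3) was 3553, 3377 and 3341 CPM in Wnt/Chrd DMSO explants at stage 17, against 32.1, 16.9 and 20.8 CPM in uninjected DMSO explants. The mean level of sox10.L and sox10.S was 0 CPM in the uninjected group, and snai2.L led there at 11.1 CPM. The 14 epidermal copies (krt12.4, krt70, tp63, grhl1, grhl3, dlx3 and trim29) summed to 23350, 13130 and 15650 CPM against 52380, 32800 and 43700 CPM in these groups. At stage 13 library a of the Wnt/Chrd DMSO group stood apart with 21700 CPM of epidermal transcripts, against 4019 and 4802 CPM in libraries b and c.

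Hox transcripts were rare in these explants. Group means reached 10 CPM for 5 of the 61 copies and 1 CPM for 32, the other 29 stayed below 1 CPM in every group, and hoxa2.L had no read in any library. A group mean of at least 1 CPM was seen for 12 of 16 anterior, 9 of 20 central and 11 of 25 posterior copies, and for 10 HoxA, 9 HoxB, 9 HoxC and 4 HoxD copies. In the first experiment 10 copies reached 1 CPM in Wnt/Chrd DMSO explants at stage 17, and the 9 copies whose level was highest in that group were all anterior. The central and posterior copies instead had their highest group means mainly in the second experiment, at stage 13, 15 of them in the DMSO control of IBET (9 central, 6 posterior) and 13 under TSA (7 central, 6 posterior). In that DMSO group 17 copies reached 1 CPM, whereas 2 did so in the DMSO control of TSA, although both groups were uninjected, vehicle-treated and collected at the same stage.

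**Figure D1:**
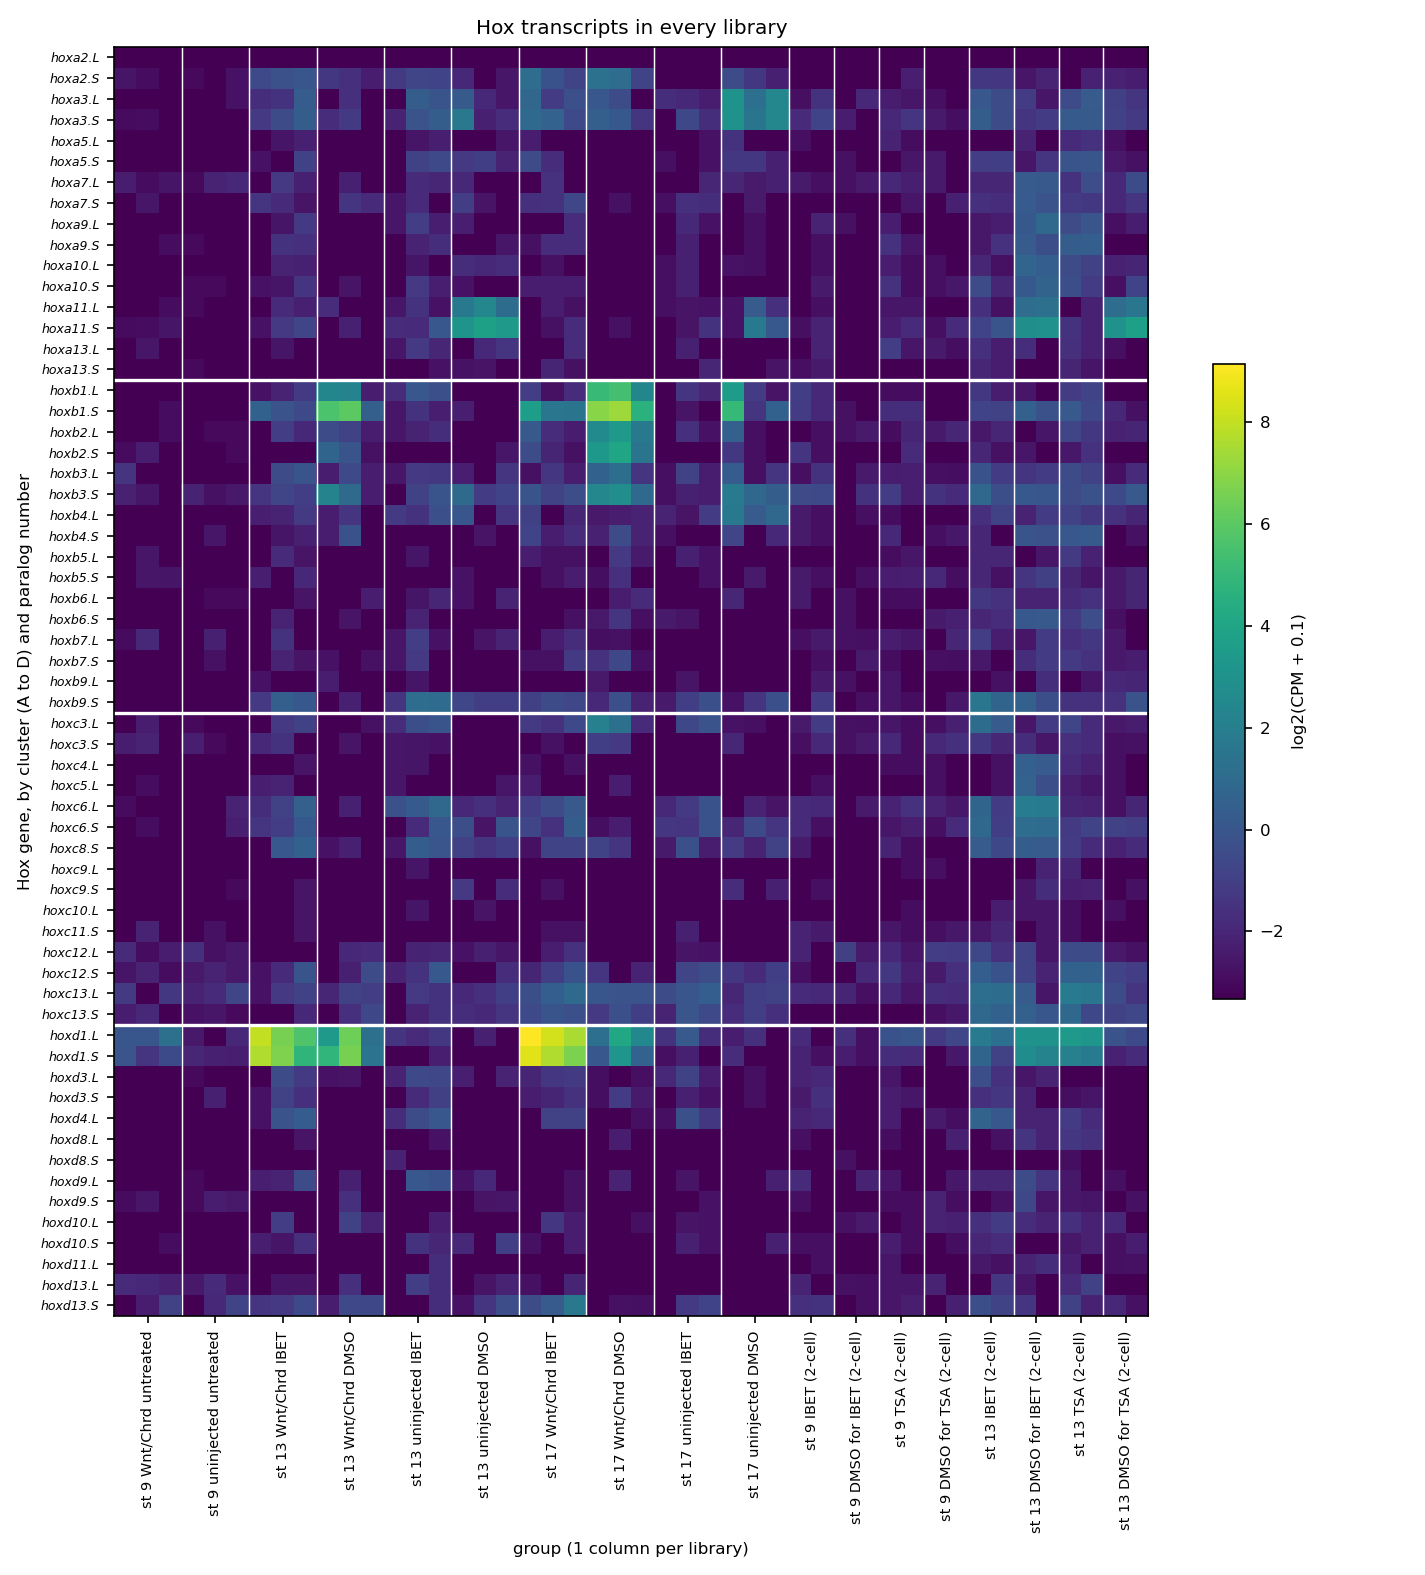
Level of each of the 61 Hox copies (down the page, by cluster and paralog number) in each of the 46 libraries (1 column per library, across, by group), as log2 of CPM after TMM scaling plus 0.1. Values are not divided by gene length; group means of at least 10 CPM were reached by 5 of the 61 copies, and of HoxD 4 of 14 copies reached 1 CPM.

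hoxb1 and hoxd1 took many of the calls. In 19 comparisons of 2 groups, 36 of the 61 copies passed the low-count filter at least once and 25 never did; 30 were called at least once, a call being an edgeR quasi-likelihood test with a Benjamini-Hochberg adjusted p under 0.05 over all genes tested. Of 72 calls, 23 were of hoxb1 and hoxd1. Copies differed in how often they were tested: hoxd1.L in 13 comparisons, hoxd1.S in 11, hoxb1.S in 10 and hoxb1.L in 4, beside hoxa3.S in 11 and hoxd9.L in 1. The comparisons also share groups, so that the calls are not separate events. In 69 of the 72 calls the libraries of the 2 groups did not overlap. That share was not computed over all called genes, so it adds no support to these calls. At these low levels a copy mostly enters a test through the group in which it is high, so that the counts below, set beside the share of all genes called, describe the copies tested and give no support to a statement on the clusters as a whole. Members named without being called were chosen after their values were seen. Shares of all genes are those of edgeR fits with the filter and without a block, unless another fit is named. Counts of members from blocked or unfiltered fits stand without such a share and are not read against it.

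**Figure D2:**
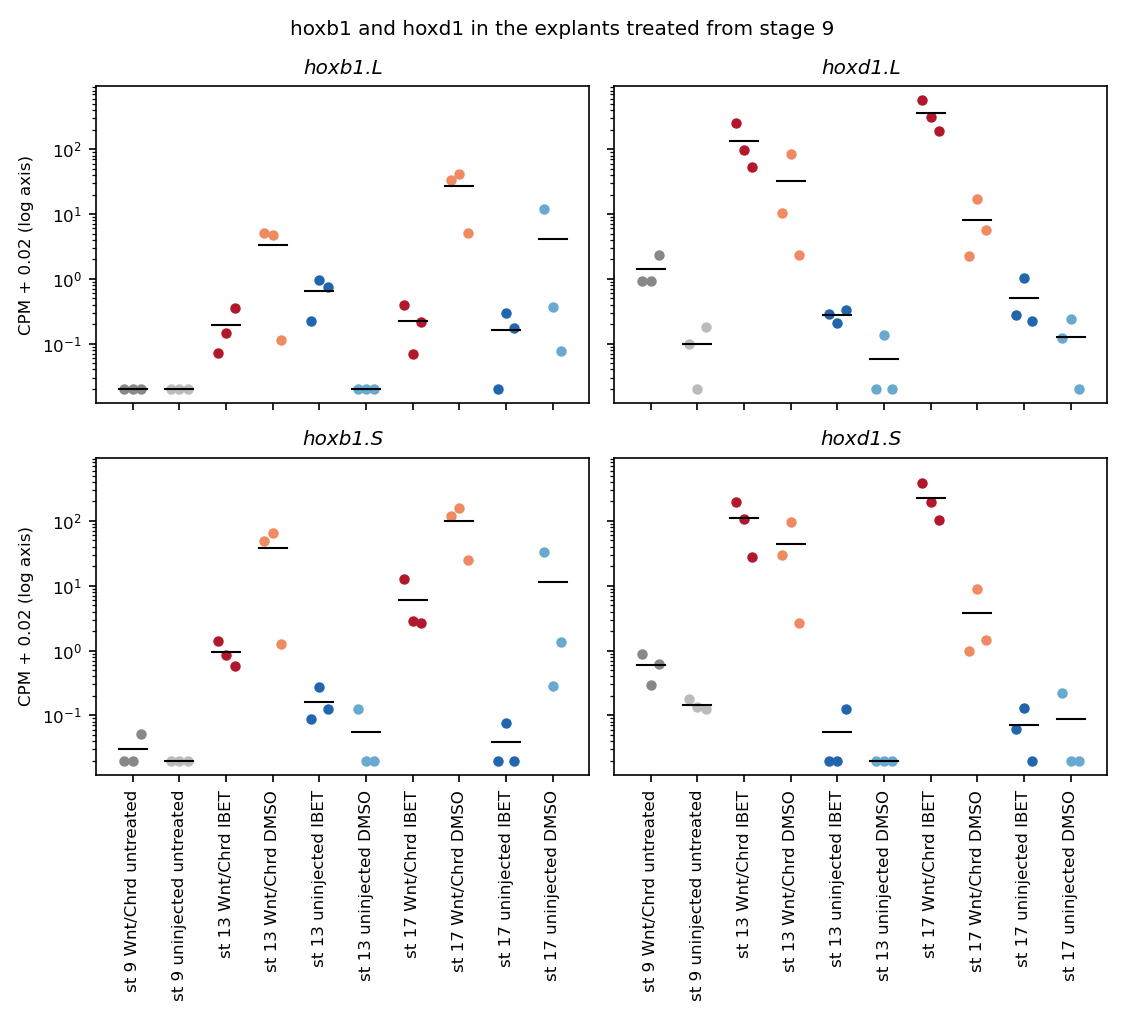
Level of both copies of hoxb1 and of hoxd1 in every library of the first experiment, in CPM on a log axis after adding a small constant so that zeros can be drawn; points are libraries, bars are group means of 3 libraries, and within each stage Wnt/Chrd stands left of uninjected and IBET left of DMSO. hoxd1.L and hoxd1.S are highest in Wnt/Chrd explants under IBET, and hoxb1.L and hoxb1.S in Wnt/Chrd explants under DMSO.

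At stage 9, before culture, the Hox copies together summed to 3.47, 3.07 and 4.24 CPM in Wnt/Chrd explants and to 1.3, 1.68 and 2.26 CPM in uninjected explants. hoxd1.L had 0.898, 0.922 and 2.31 CPM in Wnt/Chrd explants, against 0.0782, 0 and 0.16 CPM in uninjected explants. The gene belongs to paralog group 1 and is known in Xenopus as a direct target of Wnt signalling. The 3 Wnt/Chrd libraries were all above the uninjected ones, but with a log2 fold change of 4.11 ± 0.99 (SE, unadjusted p = 0.0053) the copy was not called by edgeR (adjusted p = 1). Of the 2 members tested edgeR called none, with 1 at an unadjusted p under 0.05, and it called 0.0244% of all genes higher and 0% lower. DESeq2 called 1 member (hoxd1.L) higher, and in all 22 genes higher and 0 lower. With the column letter, which pairs libraries across the groups of the first experiment, as a block, hoxd1.L was called at a log2 fold change of 4.15, adjusted p = 0.00022.

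By stage 13 Hox transcripts had come up in both kinds of DMSO explant. In uninjected explants, set against stage 9 (untreated), 2 of 2 tested members rose, where 35.9% of all genes rose and 35.4% fell: hoxa11.L and hoxa11.S near the 5′ end of HoxA, copies of a gene best known for limb and kidney development in mouse. hoxa11.S was at 0, 0 and 0 CPM at stage 9 and at 8.71, 13.7 and 10.6 CPM at stage 13, which is at least 435-fold higher (adjusted p = 5e-05, edgeR). hoxa11.L had 1 read over the 3 stage 9 libraries and 184 at stage 13, a ratio of 426 (95% counting interval 75.5 to 16900).

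In Wnt/Chrd explants 3 of 4 tested members rose between stage 9 and stage 13, where 30.8% of all genes rose and 31.7% fell. The copies tested, 1 of HoxB and 3 of HoxD, were those that passed the low-count filter here, and no HoxA copy did. hoxb1.S had 1 read at stage 9 and 2161 at stage 13, a ratio of 3430 (95% counting interval 615 to 136000) with an adjusted p of 0.0018. hoxd1.S rose with a log2 fold change of 6.36 ± 1.31 SE, adjusted p = 0.0047. hoxd1.L rose with a log2 fold change of 4.73 ± 1.32 SE, adjusted p = 0.017, but its libraries overlapped (0.898, 0.922 and 2.31 CPM at stage 9 and 10.3, 85.4 and 2.29 CPM at stage 13). Its call was lost without stage 9 library a or b (adjusted p up to 0.065) and with the column letter as a block (log2 fold change 3.52, adjusted p = 0.061). No copy was tested in both kinds of explant, so that the stage effects cannot be compared.

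Between stages 13 and 17 under DMSO, hoxa11 fell again in uninjected explants and hoxa3 came up. Of 7 tested members 1 rose and 2 fell, where 19.7% and 18.1% of all genes did. hoxa11.S was at 8.71, 13.7 and 10.6 CPM at stage 13 and at 0.051, 3.18 and 0.964 CPM at stage 17 (log2 fold change -3.00 ± 0.91 SE, adjusted p = 0.035), and hoxa11.L had 3.21, 5.31 and 2.05 CPM and 0.051, 1.1 and 0.227 CPM at these stages (log2 fold change -2.93 ± 0.87 SE, adjusted p = 0.033). No stage 17 library reached the lowest stage 13 library of either copy. hoxa3.L, of a group that patterns the posterior hindbrain and, in mouse, the third pharyngeal arch, was at 1.07, 0.171 and 0.066 CPM and then 8.31, 2.21 and 5.45 CPM (log2 fold change 3.54 ± 0.89 SE, adjusted p = 0.019). None of the 3 calls held in all 6 fits that each left out 1 library. hoxa11.L lost its call in 5, hoxa11.S in 3 and hoxa3.L in 4 (adjusted p up to 0.1, 0.1 and 0.072). Their log2 fold changes kept their sign there, at -4.63 to -2.36, -4.44 to -2.39 and 3.05 to 5.33. With the column letter as a block 6 members were called, the added ones being higher at stage 17: hoxa3.S (log2 fold change 2.98, adjusted p = 0.013), hoxb3.S (log2 fold change 1.40, adjusted p = 0.038) and hoxb4.L (log2 fold change 2.65, adjusted p = 0.018).

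In Wnt/Chrd DMSO explants 1 of 10 tested members rose between stages 13 and 17, where 6.46% of all genes rose and 7.22% fell. This was hoxb2.L, a hindbrain gene, at 0.655, 0.45 and 0.0937 CPM at stage 13 and 6.22, 10.2 and 3.23 CPM at stage 17 (log2 fold change 3.99 ± 0.77 SE, adjusted p = 0.03). Its call was kept only when stage 13 library a was left out, and was lost in the other 5 fits (adjusted p up to 0.12). The blocked fit called 6 members: hoxb2.L, and also hoxa2.S (log2 fold change 2.87, adjusted p = 0.02), hoxb1.L (log2 fold change 3.36, adjusted p = 0.017), hoxb2.S (log2 fold change 3.77, adjusted p = 0.016) and hoxb3.L (log2 fold change 2.30, adjusted p = 0.047) as higher at stage 17, and hoxd1.S as lower (log2 fold change -3.24, adjusted p = 0.038). Under IBET no member was called between stages 13 and 17. In uninjected IBET explants 1 of 7 had an unadjusted p under 0.05, where edgeR called 2.12% of all genes higher and 1.18% lower. DESeq2 called 0 members, and in all 2416 genes higher and 1890 lower. In Wnt/Chrd IBET explants 4 of 13 had an unadjusted p under 0.05, where edgeR called 0% of all genes higher and 0.00476% lower. DESeq2 called 1 member higher, and in all 1117 genes higher and 1008 lower. The block changed both: in uninjected IBET explants hoxb9.S was lower at stage 17 (log2 fold change -1.83, adjusted p = 0.036) and hoxc13.L higher (log2 fold change 2.33, adjusted p = 0.047), and in Wnt/Chrd IBET explants 6 members were higher, hoxb1.S, hoxc13.L, hoxc13.S, hoxd1.L, hoxd1.S and hoxd13.S (adjusted p between 0.0033 and 0.021). The share of all genes called by these blocked fits is not given here, so the unblocked shares above are not their background.

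The comparison of Wnt/Chrd with uninjected DMSO explants at stage 13 asks how the Hox copies differ between tissue directed to neural crest and tissue directed to epidermis. Of 7 tested members 3 were higher and 2 lower in Wnt/Chrd explants, where 4.4% of all genes were called higher and 7.58% lower: paralog group 1 of HoxB and HoxD was higher, and hoxa11 was lower. hoxd1.L had 10.3, 85.4 and 2.29 CPM in Wnt/Chrd explants, against 0, 0.114 and 0 CPM in uninjected explants, with 1772 and 2 reads and a ratio of 771 (95% counting interval 213 to 6380). hoxd1.S had 29.8, 97.7 and 2.62 CPM against 0, 0 and 0 CPM, at least 692-fold higher. hoxb1.S, which in mouse gives a middle segment of the hindbrain its identity, had 49.2, 65 and 1.26 CPM against 0.107, 0 and 0 CPM, with 2161 and 2 reads and a ratio of 941 (95% counting interval 260 to 7770). Every Wnt/Chrd library lay above every uninjected one for these 3 copies, but library c was the lowest each time, and it held 9.55 CPM of Hox transcripts in all, against 103 and 262 CPM in libraries a and b of that group. The adjusted p-values were 0.023 for hoxd1.L, 0.036 for hoxd1.S and 0.019 for hoxb1.S. Each call was lost without any 1 of the uninjected libraries, and those of hoxd1.S and hoxb1.S also without Wnt/Chrd library b (adjusted p up to 0.099, 0.092 and 0.1). Those fits ignored the pairing by column letter. With the letter as a block in edgeR all 3 copies were called (adjusted p = 0.0012, 0.0031 and 0.0015).

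hoxa11 moved the other way. hoxa11.S had 0, 0.113 and 0 CPM in Wnt/Chrd explants, against 8.71, 13.7 and 10.6 CPM in uninjected explants, with 2 and 564 reads, a ratio of 0.00309 (95% counting interval 0.000373 to 0.0112) and an adjusted p of 0.0049; this call held whichever library was left out. hoxa11.L had 0.201, 0 and 0 CPM against 3.21, 5.31 and 2.05 CPM (log2 fold change -5.53 ± 1.09 SE, adjusted p = 0.022), and lost its call without Wnt/Chrd library b or c or any 1 uninjected library (adjusted p up to 0.073). With the column letter as a block in edgeR hoxa11.L was called (adjusted p = 0.013). Over the tested members the median log2 fold change was 1.36, against 0.04 over all genes.

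At stage 17 the called copies of HoxA and of HoxB lay on both sides, and those of HoxD were higher in Wnt/Chrd explants. Of 13 tested members 5 were higher and 3 lower in Wnt/Chrd DMSO explants than in uninjected DMSO explants, where 18.9% of all genes were called higher and 22.3% lower, so that these shares lie less far from the background than at stage 13. hoxd1, hoxb2 and hoxa2.S were higher and hoxa3 and hoxb4.L lower. Among the members that were higher, hoxd1.L had 2.23, 16.8 and 5.57 CPM in Wnt/Chrd explants, against 0.102, 0.221 and 0 CPM in uninjected explants (log2 fold change 6.12 ± 1.07 SE, adjusted p = 0.0034). hoxd1.S had 0.957, 8.91 and 1.44 CPM against 0.204, 0 and 0 CPM (log2 fold change 5.72 ± 1.38 SE, adjusted p = 0.013). For both copies all 3 Wnt/Chrd libraries stood above all uninjected ones, with library b the highest. hoxb2.S had 10.1, 16.2 and 2.69 CPM against 0.306, 0.0442 and 0 CPM (log2 fold change 6.31 ± 1.04 SE, adjusted p = 0.0026). hoxb2.L had 6.22, 10.2 and 3.23 CPM against 1.32, 0.0442 and 0 CPM (log2 fold change 3.86 ± 1.17 SE, adjusted p = 0.032), again without overlap. hoxa2.S, the selector of the second pharyngeal arch in mouse and frog, was higher, with a log2 fold change of 2.28 ± 0.76 SE, adjusted p = 0.046; here the lowest Wnt/Chrd library, c, was below the highest uninjected one, a. The call of hoxa2.S was lost in 5 of 6 fits that each left out 1 library (all but Wnt/Chrd c), and that of hoxb2.L without Wnt/Chrd a or b or uninjected b or c (adjusted p up to 0.13 and 0.095). With the column letter as a block in edgeR both were called (adjusted p = 0.0052 and 0.014).

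Among the members that were lower, hoxa3.L had 0.957, 0.633 and 0 CPM in Wnt/Chrd explants, against 8.31, 2.21 and 5.45 CPM in uninjected explants (log2 fold change -3.31 ± 0.98 SE, adjusted p = 0.03). hoxa3.S had 1.28, 0.995 and 0.269 CPM against 8.16, 2.74 and 5.39 CPM (log2 fold change -2.68 ± 0.63 SE, adjusted p = 0.012). hoxb4.L, of the caudal hindbrain, was lower, with a log2 fold change of -4.25 ± 0.60 SE, adjusted p = 0.0013. None of these 3 overlapped between the groups. hoxa3.L lost its call without Wnt/Chrd b, uninjected a or uninjected c (adjusted p up to 0.092), whereas hoxa3.S and hoxb4.L kept theirs in all 6 fits that left out 1 library. With the column letter as a block in edgeR hoxa3.L was called (adjusted p = 0.02).

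hoxb1 was higher on average but not called. hoxb1.S had 120.1, 159 and 25 CPM in Wnt/Chrd explants, against 33, 0.265 and 1.36 CPM in uninjected explants. hoxb1.L had 33.2, 42.2 and 5.16 CPM against 11.9, 0.353 and 0.0567 CPM. Uninjected library a thus overlapped with the Wnt/Chrd group, and neither copy was called (log2 fold change 3.17 ± 1.45 SE, adjusted p = 0.12, and log2 fold change 2.75 ± 1.44 SE, adjusted p = 0.16). The block brought both past the threshold, hoxb1.S at a log2 fold change of 4.31, adjusted p = 0.034, and hoxb1.L at a log2 fold change of 3.88, adjusted p = 0.029. Neural crest, epidermal and hindbrain markers moved with these groups: 13 of 14 tested neural crest copies were higher, 13 of 14 epidermal copies lower, and 3 of 7 hindbrain copies higher, among them egr2.L (krox20, a hindbrain segment gene; log2 fold change 6.23 ± 1.28 SE, adjusted p = 0.0068) and mafb.S (posterior hindbrain; log2 fold change 4.32 ± 0.64 SE, adjusted p = 0.0016). Of all genes 18.9% were called higher and 22.3% lower. The summed hindbrain list was 112, 141 and 24.2 CPM in Wnt/Chrd explants, against 16.4, 23.2 and 6.3 CPM in uninjected explants, with library c lowest in both. Their part in the Hox values was not tested.

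Copies of genes that work with or upstream of Hox genes were also called at stage 17. Of all genes 18.9% were called higher and 22.3% lower there, and 4.4% and 7.58% at stage 13. Of 12 tested copies of the TALE cofactors (meis, pbx, pknox), homeodomain partners that bind DNA with Hox proteins, 4 were higher, for example pbx3.S at a log2 fold change of 3.94 ± 0.42 SE, adjusted p = 0.00032. Of 3 tested caudal copies 2 were higher, cdx4.L at a log2 fold change of 7.74 ± 1.11 SE, adjusted p = 0.0014 and cdx2.S at a log2 fold change of 6.79 ± 1.28 SE, adjusted p = 0.0047. Of 18 retinoic acid copies 8 were higher and 2 lower, including cyp26c1.L, a retinoic acid degrading enzyme (log2 fold change 12.95 ± 1.10 SE, adjusted p = 0.00012), aldh1a2.L, the main synthesising enzyme of the trunk (log2 fold change 5.61 ± 0.77 SE, adjusted p = 0.0012), and dhrs3.S, a retinaldehyde reductase (log2 fold change -5.07 ± 0.39 SE, adjusted p = 7.3e-05). At stage 13, 3 of 12 cofactor copies and 6 of 18 retinoic acid copies were higher and 1 retinoic acid copy lower, and the 4 tested caudal copies had a median log2 fold change of 2.36. The summed caudal list (6 copies) ranged from 0.656 to 43.4 CPM in Wnt/Chrd DMSO libraries at stage 13. In uninjected DMSO libraries it ranged from 5.74 to 7.8 CPM, so that the groups overlapped.

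Under IBET edgeR without a block called few genes between the 2 kinds of explant, and hoxd1 was among them. At stage 13, 2 of 9 tested members were higher in Wnt/Chrd than in uninjected IBET explants, where 0.062% of all genes were called higher and 0% lower. At stage 17, 2 of 12 were higher, where 0.211% of all genes were called higher and 0.0144% lower. DESeq2 called more genes, in all 105 higher and 17 lower at stage 13, and 250 higher and 323 lower at stage 17. Of the members it called 2 and 4 higher and 0 and 0 lower. Few calls by edgeR thus do not show that the explants were alike. hoxd1.L had 253, 97.2 and 52.8 CPM in Wnt/Chrd IBET explants at stage 13, against 0.27, 0.188 and 0.312 CPM in uninjected IBET explants (log2 fold change 9.07 ± 0.84 SE, adjusted p = 0.015), and at stage 17 566, 317 and 189 CPM against 0.254, 1 and 0.205 CPM (log2 fold change 9.55 ± 0.79 SE, adjusted p = 0.0047). hoxd1.S had 199, 108 and 28 CPM against 0, 0 and 0.104 CPM at stage 13, with 5978 and 2 reads and a ratio of 2850 (95% counting interval 789 to 23600) and an adjusted p of 0.031. At stage 17 it had 382, 199 and 103 CPM against 0.0423, 0.111 and 0 CPM, with 14323 and 3 reads and a ratio of 4690 (95% counting interval 1600 to 22700) and an adjusted p of 0.0027. The groups lay far apart at both stages, with library a the highest of the Wnt/Chrd IBET group each time. Both stage 13 calls were lost without Wnt/Chrd library b or any 1 uninjected library (adjusted p up to 0.12 and 0.25), and at stage 17 hoxd1.L lost its call without uninjected library c (0.061). Those fits ignored the pairing by column letter. With the letter as a block in edgeR, hoxd1.L and hoxd1.S were called at stage 13 (adjusted p = 2.8e-05 and 5.8e-05) and at stage 17 (adjusted p = 0.0022 and 0.00064).

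hoxb1.S also lay apart under IBET without being called. It had 12.6, 2.85 and 2.68 CPM in Wnt/Chrd IBET explants at stage 17, against 0, 0.0556 and 0 CPM in uninjected IBET explants, with 382 reads and 1 read, a ratio of 375 (95% counting interval 66.9 to 14900) and an adjusted p of 0.054. With the column letter as a block hoxb1.S was called (adjusted p = 0.01). Of the cofactor list 1 of 13 copies, meis3.S (log2 fold change 2.92 ± 0.40 SE, adjusted p = 0.046), and of the hindbrain list 1 of 7 was higher at stage 17, where 0.211% of all genes were.

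In uninjected explants IBET from stage 9 lowered hoxa11 at stage 13 and hoxa3, hoxb3.S and hoxb4.L at stage 17. At stage 13, 1 of 6 tested members was higher and 2 lower in IBET than in DMSO explants, where 22.9% of all genes were called higher and 25.2% lower. At stage 17, 4 of 5 were lower, where 22% of all genes were called higher and 25.7% lower. The counts of calls depended on the filter on low counts: hoxb1.L, hoxc3.L and hoxd4.L, which did not pass it at stage 13, had 32, 30 and 31 reads in IBET explants and none in DMSO explants (at least 11-, 10.3- and 10.6-fold higher). Without the filter 4 members were called higher and 2 lower at stage 13, and 2 higher and 8 lower at stage 17. The shares of all genes above are not the background of these unfiltered counts, which are no result on the direction of Hox change. The summed Hox level was 4.19, 17.8 and 20.1 CPM in IBET explants at stage 13, against 23.5, 22.9 and 19.4 CPM in DMSO explants, and at stage 17 2.67, 10.7 and 9.13 CPM against 74.8, 16.3 and 20.2 CPM.

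hoxa11.S had 0.203, 0.188 and 0.937 CPM in IBET explants at stage 13, against 8.71, 13.7 and 10.6 CPM in DMSO explants (log2 fold change -4.52 ± 0.64 SE, adjusted p = 0.00082). hoxa11.L had 0.0676, 0.251 and 0.052 CPM against 3.21, 5.31 and 2.05 CPM (log2 fold change -4.72 ± 0.74 SE, adjusted p = 0.0014). hoxc6.L, a trunk gene, was the one member that was higher, at 0.743, 1.07 and 1.72 CPM against 0.16, 0.229 and 0.132 CPM (log2 fold change 2.76 ± 0.60 SE, adjusted p = 0.0061). The other copy, hoxc6.S, was tested but not called, at 0, 0.188 and 0.937 CPM against 0.695, 0.0571 and 0.858 CPM. All 3 called copies had separate ranges in the 2 groups, though hoxc6.L stayed low. At stage 17 hoxa3.L had 0.211, 0.167 and 0.103 CPM in IBET explants, against 8.31, 2.21 and 5.45 CPM in DMSO explants (log2 fold change -4.94 ± 0.67 SE, adjusted p = 0.00074). hoxa3.S had 0, 0.556 and 0.205 CPM against 8.16, 2.74 and 5.39 CPM (log2 fold change -4.37 ± 0.98 SE, adjusted p = 0.0075). Both hoxa3 copies were below 1 CPM in every IBET library. hoxb3.S had 0.0423, 0.111 and 0.103 CPM against 3.42, 1.72 and 1.19 CPM (log2 fold change -4.51 ± 0.70 SE, adjusted p = 0.0014). hoxb4.L had 0.127, 0.0556 and 0.359 CPM against 3.21, 1.1 and 1.76 CPM (log2 fold change -3.40 ± 0.75 SE, adjusted p = 0.0068). The called members of stage 17 were of paralog groups 3 and 4, but only groups 3, 4 and 13 passed the filter. For the called members no library of one group fell within the range of the other. Among copies not tested, hoxa11.L had 3 reads in IBET and 30 in DMSO explants (ratio 0.098, 95% counting interval 0.0191 to 0.315). hoxb1.S had 1 and 678 reads, with 33 CPM in DMSO library a, and hoxd4.L went the other way with 20 and 0 reads. hoxc13.L was the tested member not called (log2 fold change 1.48 ± 0.60 SE, adjusted p = 0.073), and was called with the block (log2 fold change 1.53, adjusted p = 0.049). None of the 7 calls in uninjected explants was lost on leaving out any 1 library. The median log2 fold change of the tested members was -0.47 at stage 13 and -4.37 at stage 17, against 0.05 and -0.01 over all genes.

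Epidermal markers fell in these uninjected IBET explants (11 of 13 at stage 13 and 8 of 14 at stage 17), and neural plate markers rose (8 of 11 and 11 of 11). Of all genes 22.9% were called higher and 25.2% lower at stage 13, and 22% and 25.7% at stage 17. The neural plate list summed to 677, 2925 and 1204 CPM in IBET explants at stage 17, against 28, 69.8 and 42.6 CPM in DMSO explants, and the epidermal list to 15080, 2467 and 8154 CPM against 52380, 32800 and 43700 CPM. Their part in the Hox changes was not tested. Hindbrain genes were higher: 5 of 7 tested copies at stage 13, including mafb.L (log2 fold change 4.39 ± 0.64 SE, adjusted p = 0.001), and 4 of 5 at stage 17. Retinoic acid genes went up at stage 17, 13 of 19 copies against 1 lower, with aldh1a2.L at a log2 fold change of 4.23 ± 0.49 SE, adjusted p = 0.00037, cyp26a1.S, a degrading enzyme, at a log2 fold change of 7.30 ± 0.90 SE, adjusted p = 0.00046, and the receptor rara.L at a log2 fold change of 3.03 ± 0.37 SE, adjusted p = 0.00046; at stage 13, 3 of 15 were higher and 2 lower. Of the cofactors, 2 of 12 were higher and 2 lower at stage 13, meis3.L at a log2 fold change of -3.64 ± 0.69 SE, adjusted p = 0.0034 and meis1.S at a log2 fold change of 2.84 ± 0.66 SE, adjusted p = 0.0083, and 5 of 12 higher and 2 lower at stage 17.

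In Wnt/Chrd explants IBET from stage 9 was followed by more hoxd1 and less hoxb1 and hoxb2 RNA at stage 17. At stage 13, 1 of 6 tested members was lower, where 6.71% of all genes were called higher and 8.6% lower. Copies that did not pass the low-count filter at stage 13 lay on both sides. Lower was hoxb2.S, with no read in IBET explants and 46 in DMSO explants (at least 13.6-fold lower). hoxb1.L had 0.0525, 0.127 and 0.341 CPM in IBET explants, against 5.14, 4.67 and 0.0937 CPM in DMSO explants. Higher were hoxd4.L with 34 reads in IBET explants and none in DMSO explants (at least 12.8-fold higher), hoxb9.S with 43 and 2 reads (ratio 24.2, 95% counting interval 6.31 to 206), hoxc6.L with 34 and 2 (ratio 19.2, 95% counting interval 4.91 to 165) and hoxc8.S with 39 and 3 (ratio 14.7, 95% counting interval 4.66 to 74.1). Without the filter 3 members were called higher and 3 lower at stage 13, and 7 and 7 at stage 17, counts given without a share of all genes and not read as a direction of Hox change. At stage 17, 3 of 15 were higher and 5 lower, where 24.4% of all genes were called higher and 25.8% lower, shares near the background. By cluster, 3 of 3 tested HoxD copies were higher and 5 of 6 HoxB copies lower, and the 3 tested copies each of HoxA and HoxC were not called. The HoxD sum was 949, 518 and 296 CPM in IBET explants, against 3.27, 26.4 and 7.28 CPM in DMSO explants, and the HoxB sum 17, 4.96 and 5.4 CPM against 177, 239.8 and 38.9 CPM. Nearly all of the HoxD sum was hoxd1, and the ranges of the groups did not overlap for either sum.

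hoxd1.L had 566, 317 and 189 CPM in Wnt/Chrd IBET explants at stage 17, against 2.23, 16.8 and 5.57 CPM in Wnt/Chrd DMSO explants (log2 fold change 5.50 ± 0.80 SE, adjusted p = 0.0011). hoxd1.S had 382, 199 and 103 CPM against 0.957, 8.91 and 1.44 CPM (log2 fold change 5.97 ± 0.96 SE, adjusted p = 0.0016). For both copies every IBET library lay above every DMSO library. At stage 13 the groups lay closer, with hoxd1.L at 253, 97.2 and 52.8 CPM in IBET explants, against 10.3, 85.4 and 2.29 CPM in DMSO explants (log2 fold change 2.02 ± 1.17 SE, adjusted p = 0.24), and hoxd1.S at 199, 108 and 28 CPM against 29.8, 97.7 and 2.62 CPM (log2 fold change 1.36 ± 1.10 SE, adjusted p = 0.39), not called. hoxd13.S, a gene of the limb and tail end of HoxD, was low but called, with 99 reads in IBET and 2 in DMSO explants, a ratio of 55.2 (95% counting interval 14.9 to 462) and an adjusted p of 0.0023.

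hoxb1, hoxb2 and hoxb3.S were lower under IBET, whereas the other tested HoxB copy, hoxb9.S, was not called (log2 fold change 0.73 ± 0.72 SE, adjusted p = 0.43). hoxb1.S had 12.6, 2.85 and 2.68 CPM in IBET explants at stage 17, against 120.1, 159 and 25 CPM in DMSO explants (log2 fold change -4.01 ± 0.84 SE, adjusted p = 0.0052). hoxb1.L had 0.375, 0.0491 and 0.195 CPM against 33.2, 42.2 and 5.16 CPM (log2 fold change -6.91 ± 0.96 SE, adjusted p = 0.00086). hoxb1.L stayed below 1 CPM in every IBET library. hoxb2.S had 0.656, 0.147 and 0.0487 CPM against 10.1, 16.2 and 2.69 CPM (log2 fold change -4.99 ± 0.92 SE, adjusted p = 0.0031). hoxb2.L had 1.03, 0.196 and 0.0974 CPM against 6.22, 10.2 and 3.23 CPM (log2 fold change -3.81 ± 0.81 SE, adjusted p = 0.0056), and hoxb3.S was lower, with a log2 fold change of -2.76 ± 0.56 SE, adjusted p = 0.0047. For each of the 5 copies the highest IBET library stayed below the lowest DMSO library, which was library c. None of the 8 calls at stage 17 was lost on leaving out any 1 library. At stage 13 hoxb1.S alone was called, at 1.36, 0.828 and 0.569 CPM in IBET explants, against 49.2, 65 and 1.26 CPM in DMSO explants (log2 fold change -5.38 ± 1.25 SE, adjusted p = 0.026). DMSO library c lay below IBET library a, and the call was lost without DMSO a or b or IBET b or c (adjusted p up to 0.11). With the column letter as a block in edgeR hoxb1.S was called (adjusted p = 0.035).

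**Figure D3:**
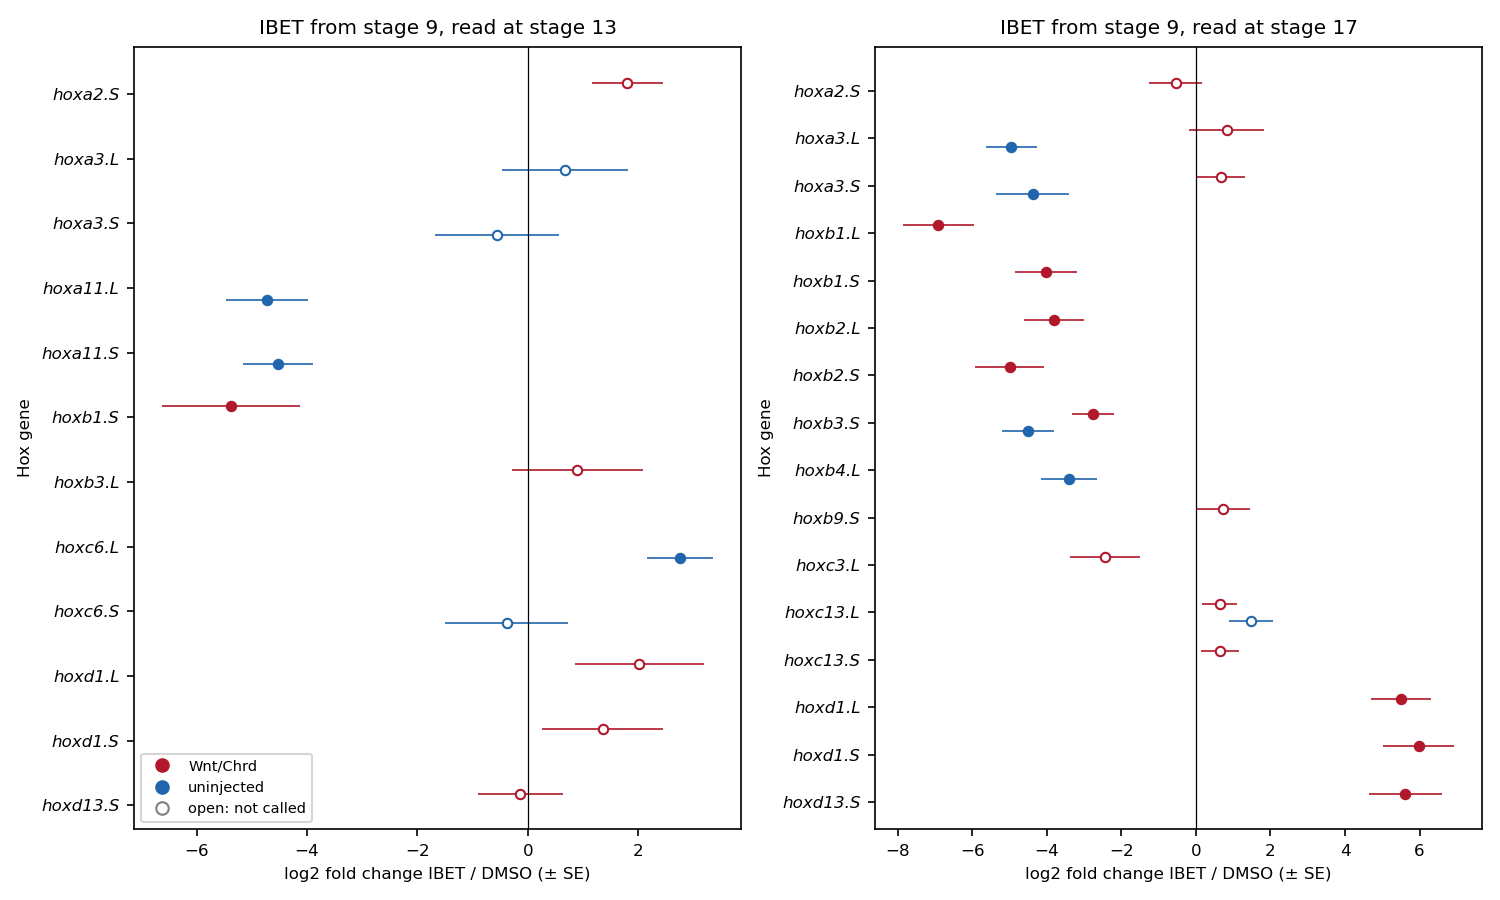
Effect of IBET from stage 9 on the tested Hox copies, as log2 fold change over DMSO with its standard error, in Wnt/Chrd and in uninjected explants at stages 13 and 17; open symbols did not pass an adjusted p of 0.05. At stage 17 hoxd1.L, hoxd1.S and hoxd13.S lie above 0 and the called HoxB copies below 0 in Wnt/Chrd explants, and hoxa3.L and hoxa3.S lie below 0 in uninjected explants (-4.94 and -4.37).

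The effect of IBET on hoxa3 differed between the 2 kinds of explant. In a fit of all 4 groups at stage 17, the log2 effect in Wnt/Chrd explants minus that in uninjected explants was 5.74 ± 1.39 for hoxa3.L (SE, edgeR, adjusted p = 0.018) and 5.02 ± 1.27 for hoxa3.S (adjusted p = 0.022). These were 2 of 21 members tested, both HoxA, where 7.73% of all genes were called higher and 5.13% lower. hoxa3.L lost its call without uninjected IBET library c (adjusted p = 0.05) and hoxa3.S without Wnt/Chrd IBET b, uninjected DMSO a or uninjected IBET c (up to 0.058). With the block hoxa2.S (difference 5.34, adjusted p = 0.014) and hoxb4.L (difference 4.23, adjusted p = 0.027) were added. At stage 13, 1 of 19 tested members had a higher and 1 a lower effect in Wnt/Chrd explants, where 1.8% of all genes were called higher and 0.44% lower: hoxa11.S at 7.35 ± 1.38 (adjusted p = 0.02) and hoxb1.L at -10.71 ± 2.23 (adjusted p = 0.039). hoxb1.L had no read in uninjected DMSO explants at stage 13, so that the size of its difference depends on the prior count of the fit. hoxa11.S had 2 reads in Wnt/Chrd DMSO explants, and was near 0 in both Wnt/Chrd groups (0.0525, 0.318 and 0.512 CPM under IBET, 0, 0.113 and 0 CPM under DMSO). Its call was lost without library c of Wnt/Chrd DMSO, Wnt/Chrd IBET or uninjected DMSO (adjusted p up to 0.07), and that of hoxb1.L in 10 of 12 such fits (up to 0.098) and with the block (difference -10.50, adjusted p = 0.059). With the block in edgeR hoxa11.S was called (adjusted p = 0.0096).

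Neural crest markers fell in Wnt/Chrd explants under IBET, 5 of 10 tested copies at stage 13 and 12 of 14 at stage 17 (sums of 505, 273 and 453 CPM in IBET explants at stage 17, against 3553, 3377 and 3341 CPM in DMSO explants). Epidermal markers fell in 11 of 12 and 13 of 14 copies, and 9 of 13 neural plate copies rose at stage 17. Their part in the Hox changes was not tested. Of all genes 6.71% were called higher and 8.6% lower at stage 13, and 24.4% and 25.8% at stage 17. Of the partners and regulators at stage 17, 8 of 13 cofactor copies were higher and 2 lower, pbx3.S at a log2 fold change of -3.32 ± 0.40 SE, adjusted p = 0.00049, and at stage 13 meis1.S alone was higher (log2 fold change 3.36 ± 0.58 SE, adjusted p = 0.011). cdx4.L was the one of 5 caudal copies that changed at stage 17 (log2 fold change -2.28 ± 0.69 SE, adjusted p = 0.025). Of 19 retinoic acid copies 9 were higher and 4 lower at stage 17, dhrs3.S at a log2 fold change of 8.59 ± 0.71 SE, adjusted p = 0.00011, and of 18 at stage 13, 1 was higher and 4 lower. Of 8 hindbrain copies 3 were higher and 1, egr2.L, lower at stage 17 (log2 fold change -4.34 ± 1.08 SE, adjusted p = 0.011), and 2 were higher at stage 13.

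At stage 9, after exposure from the 2-cell stage, Hox copies summed to 4.88 and 5.45 CPM under IBET, against 1.64 and 1.85 CPM in its DMSO libraries, and to 6.23 and 4.58 CPM under TSA, against 3.27 and 4.02 CPM in its own. Both sums were higher in each treated library than in its DMSO libraries, but low, and 1 member was tested in each comparison. Neither was called by edgeR or DESeq2 and neither had an unadjusted p under 0.05. Of all genes edgeR called 0.191% higher and 2.18% lower for IBET, and 1.04% higher and 0.979% lower for TSA. At stage 13 more of the tested members were lower than higher under IBET, and more were higher than lower under TSA, each against its own DMSO libraries. Under IBET 2 of 25 were higher and 12 lower than in DMSO explants, where 27.4% of all genes were called higher and 29.3% lower. Under TSA 14 of 21 were higher and 2 lower, where 36.9% of all genes were called higher and 35.8% lower. These counts depended on the reference and on the copies that passed the filter with it. The DMSO libraries of the 2 agents were exchanged, an alternative chosen after the data were seen. Then 8 of 14 tested members were higher and 2 lower under IBET, where 7553 and 7709 of 23255 genes were. Under TSA 5 of 25 were higher and 8 lower, where 8305 and 7764 of 23510 genes were. Of the 14 members called before under IBET, 9 were not tested, 4 were called in the same direction and 1 in the opposite one. Of the 16 called before under TSA, 2 were not tested, 6 were called in the same direction and 1 in the opposite one. With each agent's own DMSO libraries the tested members had a median log2 fold change of -1.475 for IBET and 2.27 for TSA. Over all genes it was 0.03 and 0.12. With 2 libraries in each group, every statement here rests on 4 libraries a comparison.

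Against its own DMSO libraries, members of all 4 clusters were called lower under IBET, 6 of 9 tested in HoxA, 2 of 5 in HoxB, 2 of 8 in HoxC and 2 of 3 in HoxD. Of all genes 29.3% were called lower. Against the DMSO libraries of TSA, hoxa11.L and hoxa11.S alone were called lower. Of the 14 members called with the own reference, 9 were then not tested. hoxa11.S had 0.464 and 0.845 CPM in IBET explants, against 7.25 and 7.7 CPM in DMSO explants (log2 fold change -3.43 ± 0.37 SE, adjusted p = 0.00053). This gene was also lower under IBET from stage 9 in uninjected explants, but the 2 experiments share no libraries and differ in the time of exposure, so that their sizes are given side by side only. hoxd1.L had 3.55 and 2.29 CPM in IBET explants, against 8.22 and 8.11 CPM in DMSO explants (log2 fold change -1.48 ± 0.31 SE, adjusted p = 0.007). hoxd1.S had 1.54 and 0.447 CPM against 6.48 and 4.6 CPM (log2 fold change -2.52 ± 0.56 SE, adjusted p = 0.0088). The hoxd1 copies were still detected in both IBET libraries. hoxa11.L had 0.232 and 0.0497 CPM against 2.09 and 2.34 CPM (log2 fold change -4.04 ± 0.65 SE, adjusted p = 0.0025). hoxc6.L, a trunk gene, had 1.54 and 0.348 CPM against 3.76 and 3.57 CPM (log2 fold change -2.01 ± 0.63 SE, adjusted p = 0.031). All these copies were lower in both IBET libraries than in either DMSO library.

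The other members called lower under IBET than in its own DMSO libraries were nearer the floor. hoxc4.L had 1 read over the IBET libraries and 35 over the DMSO libraries, a ratio of 0.025 (95% counting interval 0.000615 to 0.149). hoxa9.L had 3 and 39 reads (ratio 0.0672, 95% counting interval 0.0133 to 0.211). hoxa10.L had 3 and 41 (ratio 0.064, 95% counting interval 0.0127 to 0.2). hoxa7.L (-2.74 ± 0.55), hoxa7.S (-2.13 ± 0.55) and hoxb6.S (-2.40 ± 0.54) were lower by the log2 fold changes given, with adjusted p-values of 0.0059, 0.015 and 0.0092. hoxb4.S had 2 and 23 reads (ratio 0.076, 95% counting interval 0.00869 to 0.308, adjusted p = 0.018). These span the neck and trunk paralog groups 4 to 10. Higher under IBET were hoxc3.L, a gene kept in frogs and fish but lost in mammals, at 2.01 and 1.09 CPM against 0.0697 and 0.344 CPM (log2 fold change 2.86 ± 0.72 SE, adjusted p = 0.014), and hoxd4.L, of the caudal hindbrain (log2 fold change 3.05 ± 0.61 SE, adjusted p = 0.0057). Leaving out any 1 of the 4 libraries ended the calls of hoxa7.L, hoxa7.S and hoxb6.S (adjusted p up to 0.072, 0.14 and 0.089). The call of hoxb4.S was lost without IBET b (adjusted p 0.14), that of hoxc3.L without DMSO a or IBET a (0.091), that of hoxc6.L without DMSO a, DMSO b or IBET b (0.091) and that of hoxd4.L without IBET a (0.051).

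hoxd1 was higher under TSA than in its own DMSO libraries. Against the DMSO libraries of IBET neither copy was called by edgeR (hoxd1.L log2 fold change 0.25, adjusted p = 0.29, hoxd1.S -0.57, adjusted p = 0.11). hoxd1.L had 10.4 and 9.26 CPM in TSA explants, against 0.827 and 0.571 CPM in DMSO explants (log2 fold change 3.81 ± 0.28 SE, adjusted p = 1.1e-05). hoxd1.S had 4.19 and 3.33 CPM against 0.124 and 0.191 CPM (log2 fold change 4.56 ± 0.42 SE, adjusted p = 3.8e-05). hoxa11 was lower, as under IBET: hoxa11.S had 0.255 and 0.123 CPM in TSA explants, against 8.07 and 13.1 CPM in DMSO explants (log2 fold change -5.65 ± 0.44 SE, adjusted p = 1.5e-05). hoxa11.L had 2 reads against 110, a ratio of 0.0188 (95% counting interval 0.00225 to 0.0696) and an adjusted p of 0.00035. For both genes the 2 groups did not overlap. hoxc13.L had 3.35 and 2.9 CPM against 0.621 and 0.286 CPM (log2 fold change 2.76 ± 0.41 SE, adjusted p = 0.00052). hoxc12.S had 1.35 and 1.36 CPM against 0.496 and 0.381 CPM (log2 fold change 1.61 ± 0.41 SE, adjusted p = 0.0078). Both belong to the tail end of HoxC. hoxa9.S, with no read in the DMSO libraries and 52 under TSA, was at least 17.9-fold higher at 1.17 and 1.23 CPM. hoxa3.S had 1.06 and 1.05 CPM against 0.455 and 0.333 CPM (log2 fold change 1.40 ± 0.43 SE, adjusted p = 0.019). In each of these the TSA libraries lay above the DMSO libraries.

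The remaining members raised by TSA, with log2 fold changes ± SE in parentheses, were hoxb1.S (2.83 ± 0.67), hoxb3.L (2.27 ± 0.71), hoxa10.L (1.98 ± 0.58), and, from 1 to 3 DMSO reads, hoxc12.L (ratio 9.65, 95% counting interval 2.98 to 49.6), hoxa5.S (ratio 13.1, 95% counting interval 4.16 to 66.3), hoxa9.L (ratio 10.7, 95% counting interval 3.33 to 54.6) and hoxb4.S (ratio 44.5, 95% counting interval 7.57 to 1800). hoxb1.L, with no read in the DMSO libraries and 18 under TSA, was at least 6.21-fold higher. These copies come from the hindbrain, trunk and tail ends of the clusters alike, and their levels under TSA stayed low. The calls of hoxa3.S, hoxa10.L and hoxb3.L were lost in most fits that left out 1 library (3 of 4, 3 of 3 and 2 of 3 fits that tested them, adjusted p up to 0.11, 0.11 and 0.16). On library totals alone 16 members were higher and 2 lower under TSA, as this scaling raised the share of higher calls among all called genes to 68.9%, against 50.8% under TMM, and moved the median of all genes to 0.71, against 0.12.

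**Figure D4:**
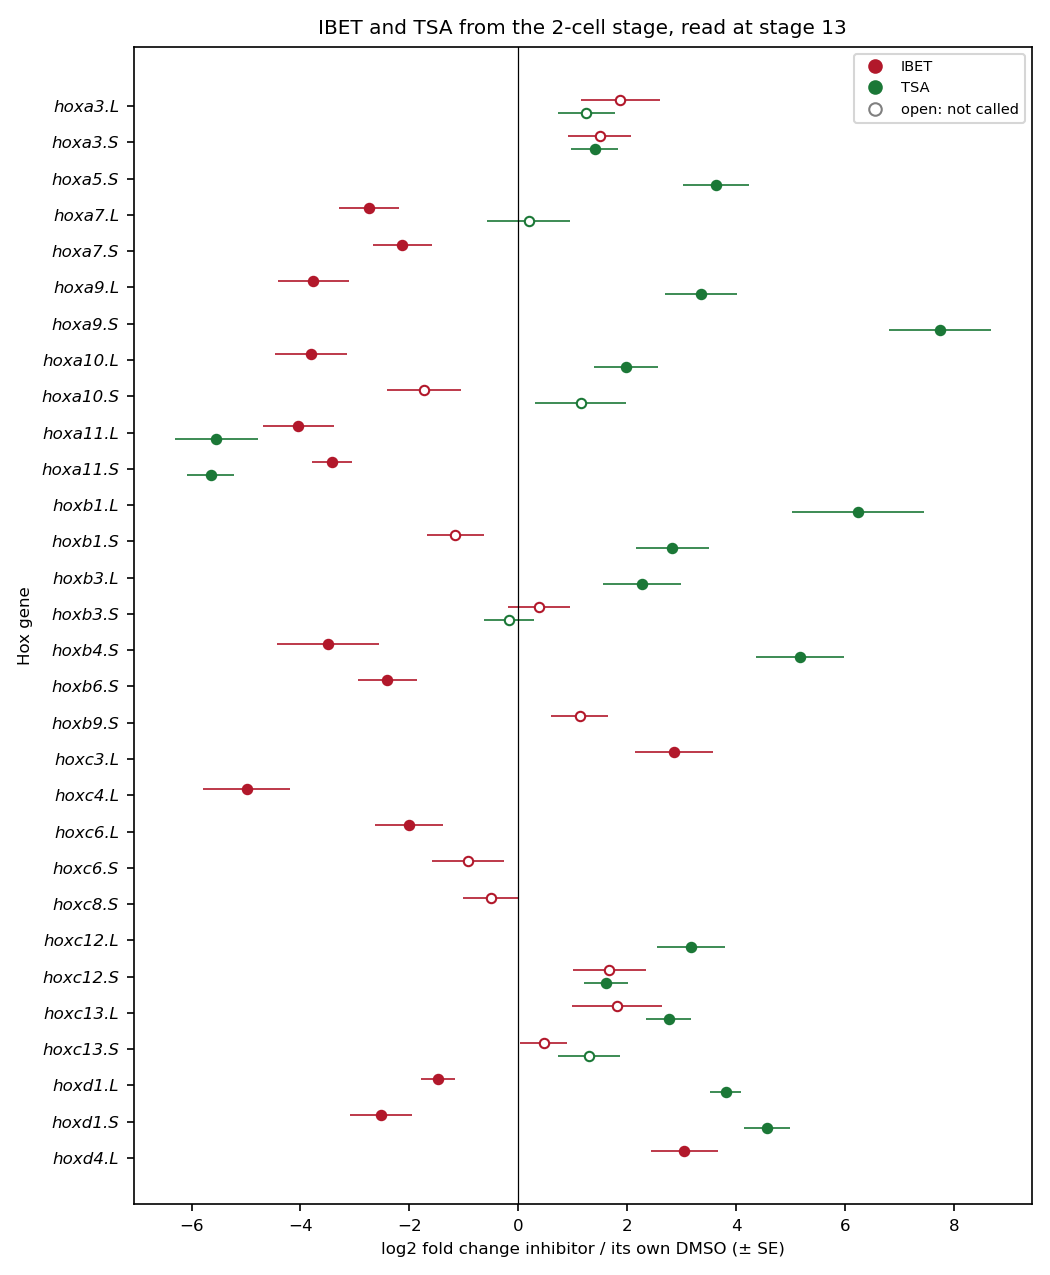
Effect of IBET and of TSA from the 2-cell stage on the tested Hox copies at stage 13, as log2 fold change over each experiment's own DMSO libraries with its standard error (2 libraries a group), fitted values that for copies with 3 or fewer reads in a group depend on the prior count; open symbols did not pass an adjusted p of 0.05. hoxa11.L and hoxa11.S lie below 0 under both agents, whereas hoxd1.L and hoxd1.S lie below 0 under IBET (-1.48 and -2.52) and above 0 under TSA (3.81 and 4.56). With the DMSO libraries exchanged (not drawn), hoxd1.L was at 2.11 under IBET, and neither hoxd1 copy was called under TSA.

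In a fit of the 4 stage 13 groups the effect of IBET was lower than that of TSA for 11 of 31 tested members and higher for 1, where 12.6% and 13.9% of all genes were called. DESeq2 called 3 of these 12, hoxd1.L, hoxd1.S and hoxa11.S. Members not called by it and members without an adjusted p-value from it are not told apart here. The differences of the log2 effects were -5.32 ± 0.42 for hoxd1.L (SE, adjusted p = 3.8e-05) and -7.12 ± 0.77 for hoxd1.S (adjusted p = 0.00019). In HoxA they were -7.15 ± 1.00 for hoxa9.L, -9.80 ± 1.29 for hoxa9.S, -5.82 ± 0.93 for hoxa10.L and -2.68 ± 0.86 for hoxa7.S. In HoxB and HoxC they were -4.00 ± 0.92 for hoxb1.S, -8.67 ± 1.38 for hoxb4.S, -6.54 ± 1.18 for hoxb6.S, -7.60 ± 1.48 for hoxc4.L and -6.61 ± 1.76 for hoxc5.L. Groups with 3 or fewer reads enter the differences of hoxa9.L, hoxa9.S, hoxa10.L, hoxb4.S, hoxb6.S, hoxc4.L and hoxc5.L, whose sizes depend on the prior count. The 1 in the other direction was hoxa11.S at 2.20 ± 0.63, which fell under both agents but further under TSA. Calls of hoxa7.S, hoxa11.S, hoxb1.S and hoxc5.L were lost in 1 to 8 of the fits that left out 1 library (adjusted p up to 0.16, 0.19, 0.063 and 0.17).

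The DMSO references of the 2 agents were not alike in Hox level. Copies of paralog groups 4 to 13 summed to 20.2 and 13.8 CPM under IBET, against 36.2 and 32.6 CPM in its DMSO libraries, and to 18.9 and 16.7 CPM under TSA, against 14.7 and 21.3 CPM in its own. hoxd1.L was at 8.22 and 8.11 CPM in the DMSO libraries of IBET and at 0.827 and 0.571 CPM in those of TSA. Mesoderm and caudal transcripts differed in the same way: the mesoderm list (tbxt, tbx6, msgn1, myod1, myf5, actc1 and mespb) summed to 105 and 92.6 CPM in the DMSO libraries of IBET, against 2.61 and 3.38 CPM in those of TSA, and the caudal list to 459 and 299.8 CPM against 48.8 and 26.7 CPM. In the DMSO libraries of IBET tbxt.L and tbxt.S averaged 27.6 and 53.5 CPM, and in those of TSA 0.327 and 1.25 CPM, where both msgn1 copies were at 0. Under IBET 8 of 11 tested mesoderm copies fell and 3 rose, tbxt.L (brachyury) at a log2 fold change of -8.63 ± 0.35 SE, adjusted p = 2.1e-05, and all 6 tested caudal copies fell, cdx4.S at a log2 fold change of -5.89 ± 0.28 SE, adjusted p = 2.9e-05. Under TSA 6 of 6 mesoderm and 5 of 6 caudal copies rose, cdx1.L at a log2 fold change of 6.23 ± 0.52 SE, adjusted p = 2.1e-05. Epidermal copies fell in 13 of 14 tested under IBET and in 14 of 14 under TSA. The part of these markers in the Hox values was not tested. Of all genes 27.4% were called higher and 29.3% lower under IBET, and 36.9% and 35.8% under TSA. Of the cofactors 5 of 13 were higher and 1 lower under IBET, and 5 of 14 higher and 6 lower under TSA, the last near the share of all genes. meis3.L was lower under both (log2 fold change -2.00 ± 0.22 SE, adjusted p = 0.00059, and log2 fold change -3.70 ± 0.15 SE, adjusted p = 9.3e-07). Of the retinoic acid list 6 of 18 were higher and 3 lower under IBET, and 12 of 24 higher and 6 lower under TSA, and of the hindbrain list 3 of 7 and 8 of 9 were higher. With the references exchanged, the lower level of hoxa11.L and hoxa11.S under IBET and under TSA was called again, as was the higher level of hoxc3.L and hoxd4.L under IBET. Under TSA hoxa3.S, hoxa5.S, hoxc12.S and hoxc13.L were again called higher (log2 fold changes of 1.71, 2.28, 2.07 and 2.37, edgeR adjusted p between 0.014 and 0.028). hoxa10.L was then called lower under TSA (log2 fold change -1.41, adjusted p = 0.022). hoxd1.L was then higher under IBET (log2 fold change 2.11, adjusted p = 0.0024, in place of -1.48) and no longer called under TSA (0.25, adjusted p = 0.29, in place of 3.81).

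The shares of the L and S copies in the reads of a gene differed between genes. The L copy carried 59.7 to 64.8% of hoxd1 reads in Wnt/Chrd IBET explants at stage 17. It carried 17.1 to 21.6% of hoxb1 reads in Wnt/Chrd DMSO explants at stage 17, 38.1 to 54.5% of hoxb2 reads in the same libraries, 16.1 to 27.9% of hoxa11 reads in uninjected DMSO explants at stage 13 and 86.3 to 100% of hoxb4 reads in uninjected DMSO explants at stage 17. These shares are over libraries with at least 20 reads of the gene; reads that match both copies could have been split or left out by the counting, and whether the counting used strand is not given in the sources used here, so that transcripts antisense to Hox genes cannot be told apart from them.

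Genes that keep Hox clusters silent (Polycomb) or active (Trithorax) were counted in the same way. Of all genes, 22% were higher and 25.7% lower under IBET in uninjected explants at stage 17, 24.4% and 25.8% in Wnt/Chrd explants at stage 17, 27.4% and 29.3% under IBET from the 2-cell stage and 36.9% and 35.8% under TSA. Of the Polycomb list, 16 of 28 tested copies were higher and 2 lower under IBET in uninjected explants at stage 17, 16 of 29 and 1 in Wnt/Chrd explants at stage 17, 9 of 29 and 3 under IBET from the 2-cell stage and 11 of 30 and 12 under TSA, the last close to the share of all genes. List medians were between 0.95 under IBET in uninjected explants at stage 17 and 0.02 under TSA. Of 12 tested Trithorax copies 1 was higher and 2 lower under IBET in uninjected explants at stage 17, 1 and 4 in Wnt/Chrd explants, 2 and 4 under IBET from the 2-cell stage and 2 and 9 under TSA. Of the genes that flank the clusters, 5 of 8 were higher under IBET in uninjected explants and 4 of 7 in Wnt/Chrd explants at stage 17, and 3 of 10 were higher and 3 lower under TSA. Forebrain genes, which mark tissue in front of the Hox domain, were higher under IBET in 7 of 11 tested copies in uninjected and 4 of 10 in Wnt/Chrd explants at stage 17, in 9 of 11 under IBET from the 2-cell stage, and in 8 of 14 under TSA, where 4 were lower.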

How the data were processed

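RNA-seq was done on 46 libraries in 18 groups of animal pole explants from wild-type Xenopus laevis. Groups were taken from the sample labels. The authors prepared directional libraries, used fastp 0.23.2 on the reads and STAR 2.6.0 for alignment to the Xenopus laevis genome of Xenbase, and deposited raw counts per gene made by HTSeq 1.99.2, with no normalization, in 18 tables. Tools and versions are those of the submitters' processing notes, and the counting options are not given in the sources used here. All members and gene lists were chosen with earlier results of these data known. Of the 63 Hox rows 2 are not reported here; they stayed in all fits. Pairs of groups were compared with edgeR 4.0.16 (R 4.3.3): filterByExpr (minimum count 10, minimum total 15), TMM, quasi-likelihood F test on the 2 groups alone, Benjamini-Hochberg over all genes tested, threshold 0.05. The SE is the log2 fold change divided by the square root of F. Differences of effects were contrasts in fits of 4 groups. A group without reads was given 3 counts over the group as floor, and 1 to 3 reads, for a called copy or one with at least 30 reads in the other group, a 95% exact interval of the ratio; both cover counting error only. Called members were named, with values in every library for up to 8 per comparison with the highest group mean, and up to 4 genes of a list with the smallest adjusted p. Libraries are lettered in the count tables, and the labels give replicate numbers. In the first experiment libraries of 1 letter deviated together (correlation of deviations from group means 0.158 to 0.854, each library best with its own letter). The letter was therefore taken as pairing, but only in the blocked fits. The main fits and those that left out 1 library had no block. No libraries were duplicates (chi-square per degree of freedom at least 8.15). Alternatives were DESeq2 1.42.0, other size factors, no filter, the replicate block and leaving out each library. The fit was tested on simulated data. Depth was 12902520 to 32022992 reads in genes.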

Additional observations from a re-analysis of the deposited data

Results flagged for a closer look

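The effect of an agent on a Hox copy passed an edgeR test of the difference between 2 contexts, in a fit of the 4 groups, in 16 cases; values are differences of log2 effects ± SE, with Benjamini-Hochberg adjustment over all genes. For IBET from stage 9, the effect in Wnt/Chrd explants minus that in uninjected explants was 7.35 ± 1.38 for hoxa11.S (adjusted p = 0.02) and -10.71 ± 2.23 for hoxb1.L (adjusted p = 0.039) at stage 13. The call of hoxb1.L was lost with the replicate block (adjusted p = 0.059) and in 10 of 12 fits that left out 1 library, and that of hoxa11.S in 3; the groups with 3 or fewer reads behind both make their sizes depend on the prior count of the fit. At stage 17 it was 5.74 ± 1.39 for hoxa3.L (adjusted p = 0.018) and 5.02 ± 1.27 for hoxa3.S (adjusted p = 0.022). For exposure from the 2-cell stage, the effect of IBET minus that of TSA at stage 13 was, in HoxA, -2.68 ± 0.86 for hoxa7.S (adjusted p = 0.043), -7.15 ± 1.00 for hoxa9.L (adjusted p = 0.00076), -9.80 ± 1.29 for hoxa9.S (adjusted p = 0.00078), -5.82 ± 0.93 for hoxa10.L (adjusted p = 0.0016) and 2.20 ± 0.63 for hoxa11.S (adjusted p = 0.029). In HoxB it was -4.00 ± 0.92 for hoxb1.S (adjusted p = 0.01), -8.67 ± 1.38 for hoxb4.S (adjusted p = 0.0016) and -6.54 ± 1.18 for hoxb6.S (adjusted p = 0.0031), in HoxC -7.60 ± 1.48 for hoxc4.L (adjusted p = 0.0045) and -6.61 ± 1.76 for hoxc5.L (adjusted p = 0.02), and in HoxD -5.32 ± 0.42 for hoxd1.L (adjusted p = 3.8e-05) and -7.12 ± 0.77 for hoxd1.S (adjusted p = 0.00019). Of these 12, DESeq2 called 3 (hoxd1.L, hoxd1.S and hoxa11.S), without telling apart here those not called from those without an adjusted p-value, and 7 have a group with 3 or fewer reads. In the second experiment each agent had its own DMSO libraries, which differed in level for these copies: hoxa9.L, for example, had 0.0772 and 0.0994 CPM under IBET, against 0.975 and 1.72 CPM in its DMSO libraries, and 0.619 and 0.864 CPM under TSA, against 0.0414 and 0.0952 CPM in its own. Agent and experiment cannot be told apart there.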

How the results depend on the processing

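No Hox copy called in a comparison changed sign under DESeq2, RLE size factors, library totals alone, no filter on low counts, a replicate block or the omission of 1 library, where that fit gave it an adjusted p-value. Copies without one, as some had under DESeq2 and on leaving out 1 library, were not assessed and are in neither count below. Of the values named, DESeq2 kept 68 calls and ended 11, library totals kept 87 and ended 1, no filter kept 87 and ended 1, the block kept 85 and ended 3, RLE size factors kept 88, and the fits that left out 1 library kept 385 and ended 123. The number of members called (given from here on, in the order of stages within each comparison) moved most with DESeq2. These numbers stand without the share of all genes called under the same setting, and are not results about the members. For Wnt/Chrd against uninjected explants DESeq2 called 1 at stage 9, 9 under DMSO at stage 13 and 4 under IBET at stage 17. For IBET from stage 9 it called 6 and 8 in uninjected explants and 6 and 13 in Wnt/Chrd explants, and for TSA from the 2-cell stage 10. Between stages 9 and 13 it called 11 in uninjected and 7 in Wnt/Chrd explants, and between stages 13 and 17 7 and 6 under DMSO and 1 in Wnt/Chrd IBET explants. For the differences of effects it called 4 and 7 at stages 13 and 17, and 3 for IBET against TSA. Without a filter the counts were 13 for Wnt/Chrd against uninjected DMSO explants and 4 for Wnt/Chrd against uninjected IBET explants at stage 17, 6 and 10 for IBET in uninjected explants, 6 and 14 for IBET in Wnt/Chrd explants, 12 and 7 between stages 9 and 13, 6 in uninjected and 2 in Wnt/Chrd DMSO explants between stages 13 and 17 (2 also with RLE size factors and with library totals), 2 in uninjected IBET explants, and 4 for the difference of IBET effects at stage 17. With the column letter as replicate block the counts were 1 at stage 9, 6 and 6 between stages 13 and 17 under DMSO and 2 and 6 under IBET, and 1 and 4 for the difference of IBET effects at stages 13 and 17; apart from the calls given in the report the block changed none in the first experiment. In the second experiment libraries of 1 letter also deviated together (correlation 0.316 to 0.722), but 2 pairs a comparison were held too few to take the letter as pairing. There the block gave 20 members for IBET and 17 for TSA at stage 13. Leaving out 1 library gave 0 to 0, 1 to 6 and 5 to 10 members for Wnt/Chrd against uninjected explants at stages 9, 13 and 17, 0 to 2 and 1 to 3 under IBET, 3 to 9 and 4 to 6 for IBET in uninjected explants, 0 to 4 and 8 to 12 in Wnt/Chrd explants, 10 to 12 for IBET and 10 to 16 for TSA from the 2-cell stage, 2 to 4 and 3 to 6 between stages 9 and 13, 0 to 5 and 0 to 5 between stages 13 and 17 under DMSO, 0 to 0 and 0 to 2 under IBET, and 0 to 3, 1 to 3 and 8 to 11 for the differences of effects. In the second experiment a lone library left in a group was assumed to vary like the others. The DMSO libraries of the other experiment were also taken as reference (chosen after the data were seen). With them 8 of 14 tested members were higher and 2 lower under IBET, and 5 of 25 higher and 8 lower under TSA. Of the 14 and 16 members called with their own reference, 9 and 2 were then not tested. hoxd1.L turned to 2.11 (adjusted p = 0.0024) under IBET, and under TSA hoxd1.S turned to -0.57 (0.11), hoxa9.L to -0.91 (0.12), hoxb1.S to -0.38 (0.52) and hoxa10.L to -1.41 (0.022). The cause of these and the other moves was not tested. Library totals alone moved the share of higher calls among all called genes to 59.2%, against 45.9% with TMM, for Wnt/Chrd against uninjected DMSO explants at stage 17, to 33.1%, against 50.3%, and 30.6%, against 49.3%, between stages 9 and 13 in uninjected and Wnt/Chrd explants, to 74.3%, against 47.2%, 78%, against 64.2%, and 84.5%, against 0%, between stages 13 and 17 in Wnt/Chrd DMSO, uninjected IBET and Wnt/Chrd IBET explants, to 48.9%, against 60.1%, for the difference of IBET effects at stage 17 and to 21.6%, against 52.4%, for IBET against TSA. The median of all genes shifted to -0.88, against -0.03, and -0.94, against -0.09, between stages 9 and 13. Depth limits the low copies: 29 of 61 stayed below 1 CPM in every group.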
